A study of Mus musculus with 5 samples.

Results

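The genes described here are 10 genes of collagen maturation and proline synthesis, out of 23771 genes in the deposited table of the cancer cells: P4ha1, P4ha2, P4hb, Plod1, Plod2, Plod3, Serpinh1, Lox, Aldh18a1 and Pycr1. They were chosen by name, for their place in the pathway and with earlier results of these data known. All 10 were in the table. The cancer cells came from lungs of female BALB/c mice, aged 11 weeks at collection, that had received control medium (CM) or tumor-secreted factors (TSF, medium in which pieces of resected 4T1 mammary tumors had been kept, where the protocol in the labels names 4T1 or EMT6.5) by vein, 3 times per week for 3 weeks from the age of 6 weeks. Mice of both groups were then given 25000 4T1 cells, a mouse mammary carcinoma line, marked with CD90.1, and lungs were taken 16 days later. Lungs of 3 mice were pooled into 1 library per group, so the difference between mice was not measured, no test between the groups was possible, and every statement below compares 2 libraries. TSF and CM libraries of day 11 exist in the series, but the table of gene values covers day 16 only. The TSF library held 139 cancer cells and the CM library 29.

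Collagen chains are made in the endoplasmic reticulum (ER), where prolyl 4-hydroxylase (a P4ha subunit that carries the active site, bound to P4hb) hydroxylates prolines so that the triple helix holds, and where the lysyl hydroxylases of the Plod family modify lysines that later form cross-links. Serpinh1, also called Hsp47, is the chaperone that binds the folded triple helix in the ER, and Lox oxidizes lysines outside the cell to start the cross-links. Collagen is rich in proline, which cells make from glutamate in mitochondria through Aldh18a1 and Pycr1. P4ha1, P4ha2, Plod2 and Lox are known as genes induced by low oxygen, Serpinh1 as a heat shock gene, and Aldh18a1 and Pycr1 as genes induced by amino acid shortage through the factor ATF4.

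The 10 genes did not differ in one direction. P4ha1, P4ha2 and Plod1 had mean levels more than 1.5-fold higher in the TSF cancer cells, Aldh18a1 and Pycr1 had levels more than 1.5-fold lower, and P4hb, Plod2, Plod3 and Serpinh1 lay within 1.5-fold. Lox was next to absent. Levels are mean CP10k, that is, UMIs (molecules counted) per 10000 UMIs of a cell, averaged over all cancer cells of a library. Of the 10 genes, 9 had a UMI in 10% or more of the cells of at least 1 library, the minimum set for a ratio, and 10201 of all genes passed it. Of those 9 genes, 3 were at least 1.5-fold higher in TSF, where 16.0% of all genes were, and 2 were at least 1.5-fold lower, where 29.8% of all genes were. Of the 2 lower genes, Pycr1 passed the minimum in CM alone, the library where it was higher. The median log2 ratio of the 9 genes was 0.06, beside -0.19 for all genes, so the median gene was itself lower in TSF, with a ratio of 0.877. Ribosomal protein genes held 24.7% of the mean CP10k in TSF and 19.3% in CM, and each ratio compares parts of a fixed total. Relative to the median gene, 21.7% of all genes were 1.5-fold higher and 22.2% lower, Plod2 also passed the limit, with a log2 difference of 0.65, and the 5 genes past it before stayed past it.

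The sequences just upstream of the 5 genes past the limit are shown so that the pair of prolyl hydroxylase genes and Plod1 can be read beside the pair of proline synthesis genes. Each run is the 250 bases before the RefSeq start on GRCm38.p6, written 5′ to 3′ on the strand of the gene. The RefSeq table held such windows for 8 of the 10 genes, and for Plod2 and Lox none is shown. Capitals mark ACGTG or GCGTG, the core of the hypoxia response element, and TGATGNAA, a short form of the amino acid response element, on either strand.
P4ha1 (chr10:59323046-59323295, plus strand): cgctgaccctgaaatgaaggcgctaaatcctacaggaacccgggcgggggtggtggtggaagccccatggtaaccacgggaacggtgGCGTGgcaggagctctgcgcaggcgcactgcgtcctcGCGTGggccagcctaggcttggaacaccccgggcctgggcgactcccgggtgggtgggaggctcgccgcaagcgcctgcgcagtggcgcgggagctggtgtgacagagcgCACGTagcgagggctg
P4ha2 (chr11:54100674-54100923, plus strand): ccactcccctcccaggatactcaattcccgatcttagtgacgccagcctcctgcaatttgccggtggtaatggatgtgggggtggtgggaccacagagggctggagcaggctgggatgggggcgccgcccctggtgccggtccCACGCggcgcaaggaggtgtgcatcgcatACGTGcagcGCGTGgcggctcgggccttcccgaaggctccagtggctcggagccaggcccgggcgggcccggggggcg
Plod1 (chr4:147936777-147937026, minus strand): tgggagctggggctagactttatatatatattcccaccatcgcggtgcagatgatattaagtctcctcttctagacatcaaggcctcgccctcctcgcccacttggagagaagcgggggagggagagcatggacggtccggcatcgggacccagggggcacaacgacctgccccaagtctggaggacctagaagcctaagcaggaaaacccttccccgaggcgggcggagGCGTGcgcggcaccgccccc
Pycr1 (chr11:120643749-120643998, minus strand): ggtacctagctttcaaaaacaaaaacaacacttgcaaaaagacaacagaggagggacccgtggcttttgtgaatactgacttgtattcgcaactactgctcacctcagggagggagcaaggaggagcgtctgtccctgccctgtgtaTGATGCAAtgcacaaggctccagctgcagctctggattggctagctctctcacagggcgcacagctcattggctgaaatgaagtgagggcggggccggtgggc
Aldh18a1 (chr19:40588464-40588713, minus strand): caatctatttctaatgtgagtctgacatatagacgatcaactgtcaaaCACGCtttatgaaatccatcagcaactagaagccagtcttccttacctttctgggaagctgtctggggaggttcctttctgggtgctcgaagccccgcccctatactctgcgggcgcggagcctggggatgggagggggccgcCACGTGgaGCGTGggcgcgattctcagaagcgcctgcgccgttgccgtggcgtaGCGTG

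An ACGTG or GCGTG core was found in 7 of the 8 windows, and in 38.6% of 32851 windows of the same length before all RefSeq starts. P4ha1 and P4ha2 held 3 matches each, a count that 6.58% of all windows reached or passed. Aldh18a1, lower in TSF, held 5, of which a pair overlap in a palindrome, Plod3 held 4, P4hb held 2, Plod1 and Serpinh1 held 1 each and Pycr1 held none. Whether the matches bear on the differences was not tested. TGATGNAA was found in the window of Pycr1 alone among the 8, and in 3.45% of all windows. These are matches of letters, and binding was not measured. The RefSeq starts of P4ha2 and Pycr1 lie inside the genes as GENCODE M21 draws them, so the whole P4ha2 window and the last bases of the Pycr1 window lie within them.

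P4ha1 and P4ha2 encode alternative catalytic subunits of prolyl 4-hydroxylase. P4ha1 (ENSMUSG00000019916, GRCm38 chromosome 10, 59323296 to 59373304, plus strand) had a mean of 1.53 CP10k in the TSF library and 0.981 CP10k in the CM library, a ratio of 1.56. P4ha1 UMIs were present in 117 of 139 TSF cells, 84.2% with a 95% Clopper-Pearson interval of 77.0 to 89.8%, and in 15 of 29 CM cells, 51.7% with an interval of 32.5 to 70.6%. The intervals lay apart. The exact conditional interval of the ratio of the shares, 1.63, ran from 0.947 to 3.00. That interval takes the counts of positive cells as rates and leaves out the cells without a UMI, so it is too wide at shares this high. Among cells that had a P4ha1 UMI the mean was nearly equal, 1.82 CP10k in TSF and 1.90 in CM, about 5 UMIs in a cell of median depth (4.83 and 5.25), so the higher mean in TSF came with a larger share of positive cells and not with more P4ha1 per positive cell.

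P4ha2 (ENSMUSG00000018906, GRCm38 chromosome 11, 54100095 to 54131665, plus strand) showed the largest ratio among the 9 genes, 2.78, with 0.330 CP10k in TSF and 0.119 in CM. It was seen in 55 TSF cells (39.6%, interval 31.4 to 48.2%) and in only 3 CM cells (10.3%, interval 2.19 to 27.4%), a ratio of shares of 3.82 (exact conditional interval 1.24 to 19.1). The CM level thus rests on 3 cells, which held a mean of 1.15 CP10k each, above the 0.834 CP10k of a positive TSF cell. P4ha1 and P4ha2 were the only genes of the 10 whose share intervals lay apart, and both shares were higher in TSF. Such a difference was found in 1.14% of the 10201 genes in that direction and in 1.51% with the share lower in TSF, a direction in which none of the 10 lay apart. The intervals cover counting of cells only.

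Depth bears on these shares. Median depth was 26615 UMIs per cancer cell in TSF and 27679 in CM, but 8 of 29 CM cells (27.6%) and 14 of 139 TSF cells (10.1%) had fewer than 10000 UMIs. Even if all shallow CM cells were among those without a P4ha1 UMI, at least 6 of the 21 deeper CM cells (28.6%) had none. Even if no shallow TSF cell was among them, at most 22 of the 125 deeper TSF cells (17.6%) had none. For P4ha2, at least 85.7% of the deeper CM cells and at most 67.2% of the deeper TSF cells had no UMI. The order of the shares thus held among the deeper cells for both genes. Thinning to a fixed depth needs the counts of single cells and was not done, and the share in a cell type that lacks these genes was not analysed here.

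P4hb (ENSMUSG00000025130, GRCm38 chromosome 11, 120560298 to 120573253, minus strand) encodes the partner of both catalytic subunits and also serves the ER as a protein disulfide isomerase. Its level was 4.35 CP10k in TSF and 4.41 in CM, a ratio of 0.987, and it was seen in 133 TSF cells (95.7%) and 28 CM cells (96.6%). The ratio of shares was 0.991 and that of the level per positive cell 0.996, so all 3 measures of P4hb were close to equal, while its partners P4ha1 and P4ha2 were higher in TSF. P4ha3, a further catalytic subunit that is not among the 10, was seen in 18 TSF cells and 2 CM cells, with 0.0690 and 0.0246 CP10k and a ratio of 2.80, the CM value resting on 2 cells.

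**Figure D1:**
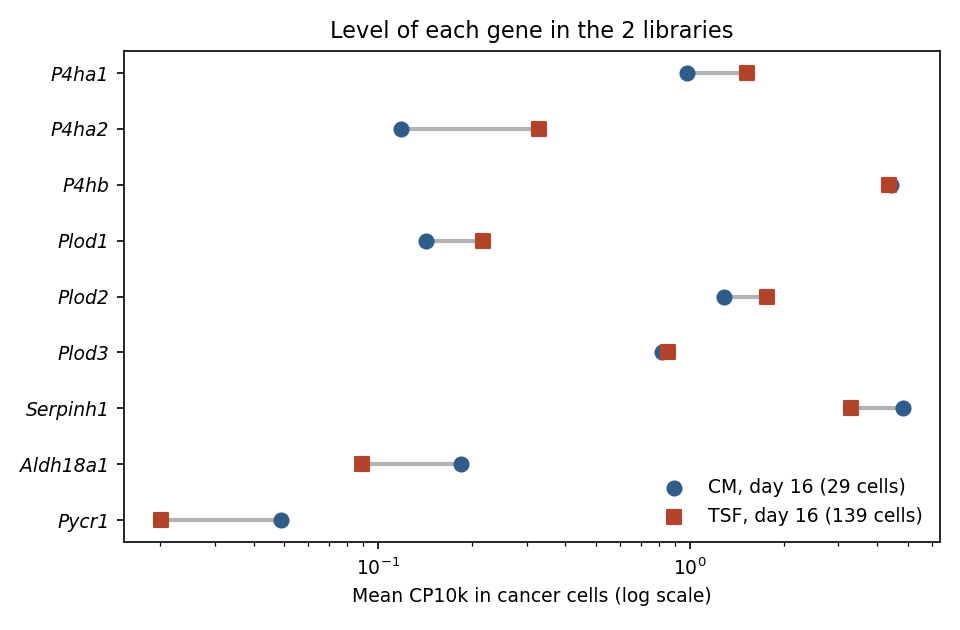
Mean CP10k (log scale) of 9 of the 10 genes in the CM library (circles) and the TSF library (squares) of day 16, with no error because each group is 1 library. P4ha1, P4ha2, Plod1 and Plod2 lie further right in TSF, P4hb and Plod3 nearly coincide, and Serpinh1, Aldh18a1 and Pycr1 lie further left; Lox, listed at 0 in CM, is left out.

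The lysyl hydroxylases were graded. Plod1, which acts on lysines of the helix, had 0.217 CP10k in TSF and 0.143 in CM, a ratio of 1.52 that lies just past the limit. A Plod1 UMI was present in 56 TSF cells (40.3%, 32.1 to 48.9%) and in 9 CM cells (31.0%, 15.3 to 50.8%), and these intervals overlap. Plod2, known for the telopeptide lysines that form stable cross-links, had 1.77 CP10k in TSF and 1.29 in CM, a ratio of 1.37 just short of the limit. A Plod2 UMI was present in 121 TSF cells (87.1%, 80.3 to 92.1%) and in 23 CM cells (79.3%, 60.3 to 92.0%), and its positive cells held 2.03 and 1.62 CP10k. Most of the Plod2 difference therefore lay in the level per positive cell, with a ratio of 1.25, and less in the share of cells, with a ratio of 1.10. Plod3, which also adds glucose to collagen, was nearly equal, with 0.852 CP10k in TSF and 0.816 in CM, a ratio of 1.04. Its share of positive cells was 78.4% in TSF and 79.3% in CM. Plod1 lies on GRCm38 chromosome 4 (147909753 to 147936767, minus strand), Plod2 on chromosome 9 (92542223 to 92608428, plus strand) and Plod3 on chromosome 5 (136987019 to 136996648, plus strand).

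Serpinh1 (ENSMUSG00000070436, GRCm38 chromosome 7, 99345376 to 99353239, minus strand) went the other way from P4ha1, P4ha2 and Plod1. It had 3.28 CP10k in TSF and 4.82 in CM, a ratio of 0.681, or 1.47-fold higher in CM and so within the limit. Nearly every cell of both libraries was positive, 132 of 139 in TSF (interval 89.9 to 98.0%) and 28 of 29 in CM (96.6%, interval 82.2 to 99.9%). The difference lay in the level per positive cell, 3.45 CP10k in TSF and 4.99 in CM. Relative to the median gene the log2 ratio of Serpinh1 was -0.37, and 31.1% of the 10201 genes had a lower ratio than Serpinh1.

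A Lox UMI was present in 2 of 139 TSF cells (1.44%, 0.175 to 5.10%) and in 0 of 29 CM cells, which allows a share of cells with a UMI of up to 10.3% by the limit of 3 counts, or 11.9% by the upper Clopper-Pearson bound. Its mean in TSF was 0.00606 CP10k, so no fold is given. Of the 4 related Loxl genes, 2 passed the minimum of 10% of cells, none was 1.5-fold higher and 1 was lower. That gene, Loxl4, had 0.0644 CP10k in TSF and 0.0994 in CM, a ratio of 0.648, in 24 TSF and 7 CM cells, and it was within the limit relative to the median gene.

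**Figure D2:**
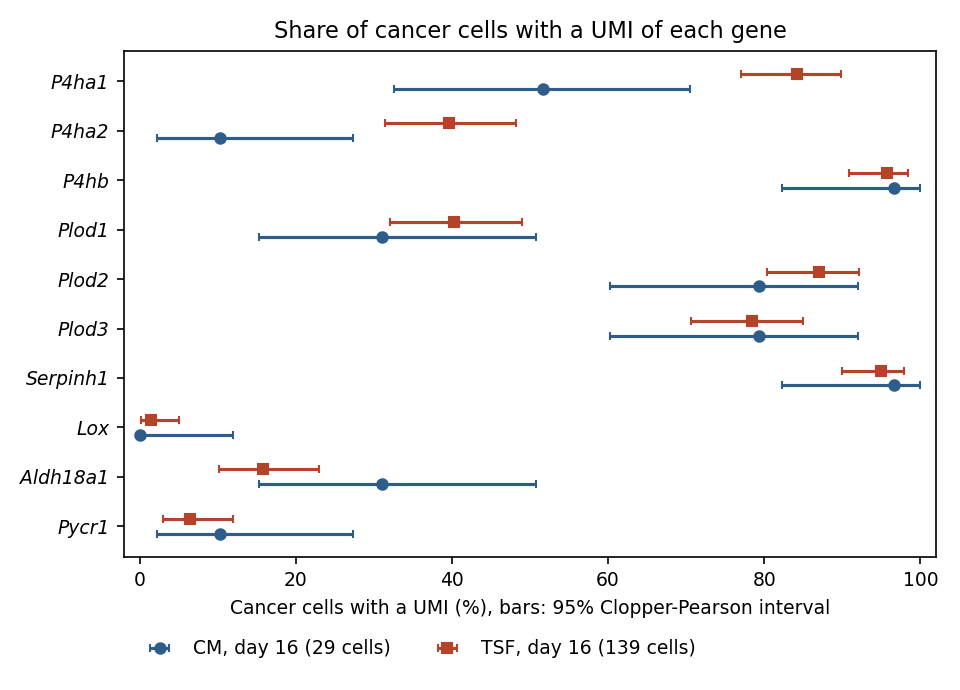
Share of cancer cells with a UMI of each of the 10 genes in percent, with 95% Clopper-Pearson intervals, for the CM library (circles, 29 cells) and the TSF library (squares, 139 cells). The intervals of P4ha1 and P4ha2 lie apart, and those of the other 8 genes overlap.

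Both genes of proline synthesis had low levels, with the lower mean in TSF. Aldh18a1 (ENSMUSG00000025007, GRCm38 chromosome 19, 40550257 to 40588463, minus strand), which makes the intermediate that leads from glutamate to proline, had 0.0891 CP10k in TSF and 0.186 in CM, a ratio of 0.480. It was seen in 22 TSF cells (15.8%, interval 10.2 to 23.0%) and 9 CM cells (31.0%, interval 15.3 to 50.8%), with overlapping intervals and a ratio of shares of 0.510 (exact conditional interval 0.226 to 1.26). Positive cells held 0.563 CP10k in TSF and 0.598 in CM, which is 1.498 and 1.655 UMIs at median depth. Both lie near 1 UMI, the least a positive cell can hold, and a level in CP10k also varies with the depth of those cells. The level per positive cell of Aldh18a1 therefore says little about a difference.

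Pycr1 (ENSMUSG00000025140, GRCm38 chromosome 11, 120635712 to 120643769, minus strand), the mitochondrial enzyme of the last step to proline, had 0.0202 CP10k in TSF and 0.0489 in CM, a ratio of 0.414. Only 9 TSF cells (6.47%, interval 3.00 to 11.9%) and 3 CM cells (10.3%, interval 2.19 to 27.4%) had a UMI, and the ratio of shares, 0.626, had an exact conditional interval of 0.156 to 3.59. In a cell of median depth 1 UMI is 0.376 CP10k in TSF and 0.361 in CM. Positive cells held 0.312 CP10k in TSF and 0.472 in CM, that is, about 1 UMI each. The direction of Pycr1 was therefore not resolved at this depth, and it passed the 10% minimum through its 3 CM cells.

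**Figure D3:**
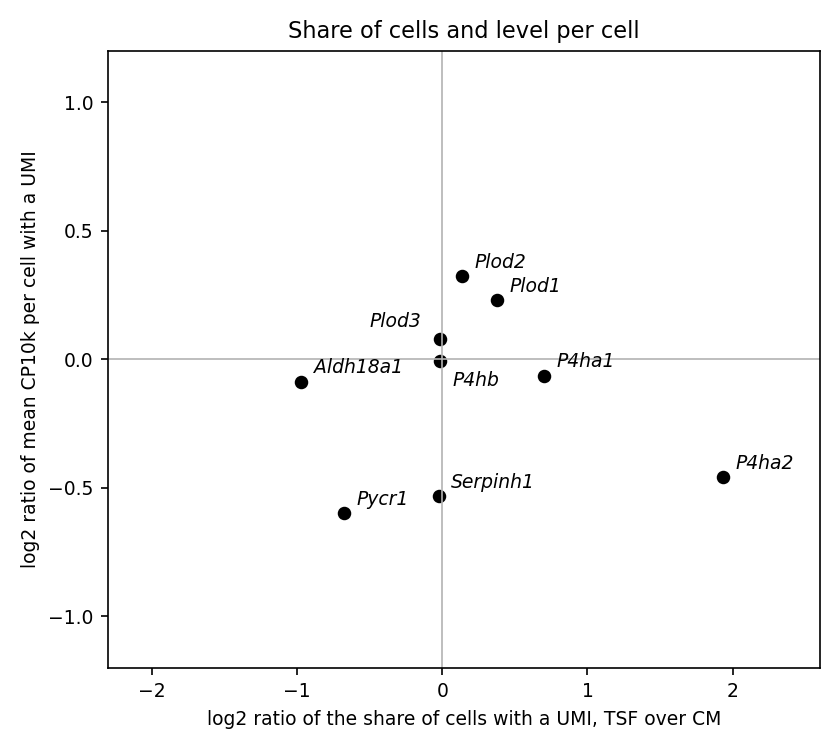
The log2 ratio of the share of cells with a UMI (x axis) against the log2 ratio of mean CP10k per cell with a UMI (y axis), TSF over CM, for 9 genes; the 2 values add up to the log2 ratio of the mean. P4ha1 and Aldh18a1 lie away from 0 along the x axis and Serpinh1 along the y axis, while P4hb and Plod3 lie near the origin.

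Among all 10201 genes, P4ha2 had a ratio above that of 95.5% of genes, P4ha1 above 85.5%, Plod1 above 84.6% and Plod2 above 80.0%. Plod3 stood above 62.9% and P4hb above 58.9% of genes. At the other end Aldh18a1 stood above 14.1% and Pycr1 above 9.93%. Levels of few UMIs are the less certain ones. A CM mean of 29 cells moves by 0.0125 CP10k with each UMI in a cell of median depth. It moves further with a UMI in a shallower cell, and the shallowest CM cancer cell had 973 UMIs. At median depth, the CM level of P4ha2 equals 9.51 UMIs, that of Plod1 11.4, that of Aldh18a1 14.9 and that of Pycr1 3.92. That of P4ha1 equals 78.8 and that of Serpinh1 387. The depth of the positive cells was not known, and fewer UMIs lie behind a level where shallow cells held them.

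**Figure D4:**
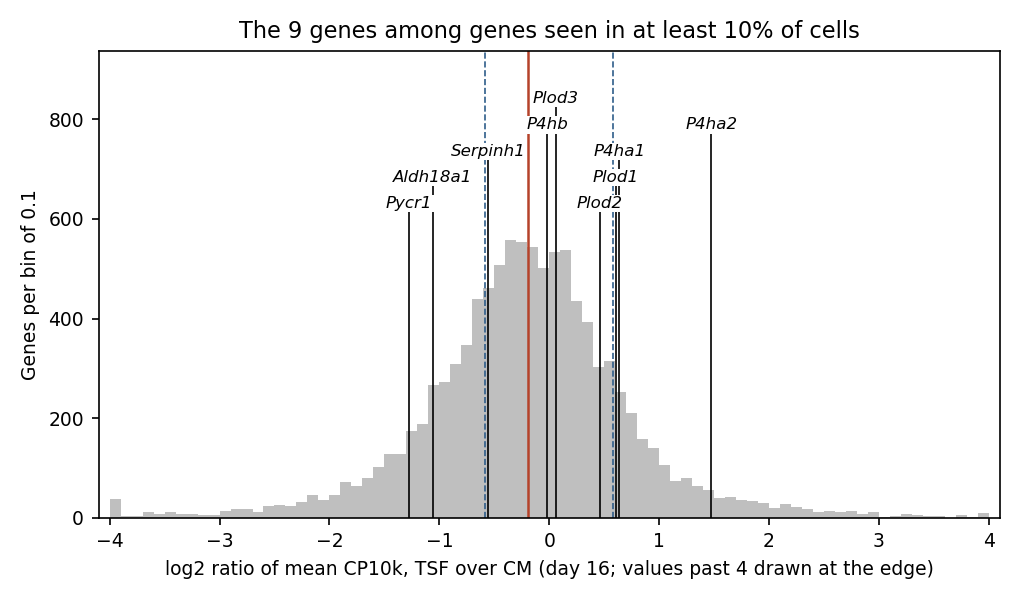
Histogram of the log2 ratio of mean CP10k, TSF over CM, for genes seen in at least 10% of cells of either library (70 genes listed at 0 in CM and 10 listed at 0 in TSF are not drawn), with the 9 genes as labelled lines. Dashed lines mark 1.5-fold and the red line the median gene at -0.19; P4ha2 lies furthest right of the 9 and Pycr1 furthest left.

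The remaining genes of the pathway were described with 7 lists made for this work. They held 109 genes in the table, of which 62 passed the 10% minimum, 14 (22.6%) were at least 1.5-fold higher in TSF and 21 (33.9%) at least 1.5-fold lower, beside the 16.0% and 29.8% of all genes above. Their median log2 ratio was -0.14. Of the genes counted higher, P4ha3, Tmem38b, Ero1lb and Col12a1 passed the minimum in TSF alone. Of those counted lower, P3h4, Col4a6 and Slc11a2 passed it in CM alone. The shares of all genes were counted by the same minimum.

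Of 7 measured genes of proline metabolism other than the 2 above, 5 were at least 1.5-fold lower in TSF and none was higher. Their median log2 ratio was -0.77. Among all genes, 29.8% were lower and 16.0% higher. Pycrl, which like Pycr1 makes proline but in the cytosol, had 0.185 CP10k in TSF and 0.346 in CM, a ratio of 0.534. Prodh, which breaks proline down, had 0.131 and 0.230 CP10k, a ratio of 0.569, but its share of positive cells was not lower in TSF, with 28.1% against 24.1%, and its CM mean rests on 7 cells. Glul, which makes glutamine from glutamate, had 0.261 and 0.444 CP10k, a ratio of 0.588. Oat, which links ornithine to the same intermediate, had a ratio of 0.604 and was added after its value was seen. Pepd, which frees proline from dipeptides and was named after its value was seen, had 0.328 CP10k in TSF and 0.314 in CM. Relative to the median gene, 2 of the 7 were past the limit, Pycrl and Prodh, beside 22.2% of all genes lower on that scale. Oat at -0.54 and Glul at -0.58 on the log2 scale lay just inside the limit.

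Of 10 other measured genes that modify or fold procollagen, 3 were higher, 1 was lower and 6 lay within 1.5-fold. P4ha3 is described above. P3h1, a prolyl 3-hydroxylase, had 0.158 CP10k in TSF and 0.0903 in CM, a ratio of 1.75, in 46 and 4 cells. Tmem38b, an ER potassium channel needed for collagen modification, had a ratio of 3.70 but was seen in 2 CM cells, and P3h4, which has no hydroxylase activity of its own, had a ratio of 0.488 in 12 TSF and 5 CM cells. The higher genes of this list, like P4ha2, had UMIs in few CM cells.

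Of 10 measured genes of procollagen export and cleavage, 2 were higher, 2 were lower and 6 lay within the limit. Both enhancers of the protease that removes the C-terminal propeptide were higher. Pcolce had 3.20 CP10k in TSF and 1.46 in CM, a ratio of 2.19, in 90.6% and 62.1% of cells, and Pcolce2 had 0.739 and 0.356 CP10k, a ratio of 2.08, in 71.9% and 51.7% of cells. Sec24d, of the coat that carries procollagen out of the ER, had a ratio of 0.507, and Adamts14, which removes the N-terminal propeptide, a ratio of 0.604. Adamts14 was within the limit relative to the median gene.

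Of 44 collagen chain genes, the substrates of these enzymes, 12 passed the minimum, 4 were higher in TSF and 5 lower, with a median log2 ratio of -0.0044. Col6a1 (2.09 and 0.815 CP10k, ratio 2.56) and Col6a2 (0.713 and 0.163 CP10k, ratio 4.37), 2 chains of the beaded-filament collagen VI, were higher. Col12a1 had a ratio of 2.63 with 1 positive CM cell, and Col4a6 a ratio of 0.245 with 4. Col8a1, named after its value was seen, had 1.04 CP10k in TSF and 2.65 in CM, a ratio of 0.393, in 105 and 24 cells, and Col18a1, likewise, 1.18 and 1.87 CP10k, a ratio of 0.628. Col18a1 was within the limit relative to the median gene. Col1a1 and Col1a2, the chains of fibrillar collagen I, named after their values were seen, had UMIs in 6 TSF cells each and were at 0 in CM, with the limits given for Lox.

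Of 11 ER disulfide isomerases and their oxidases, 3 were higher, 4 were lower and 4 lay within the limit. Ero1l, the oxidase that recharges P4hb and its relatives and that is also known as induced by low oxygen, had 1.64 CP10k in TSF and 0.612 in CM, a ratio of 2.68, in 66.9% and 37.9% of cells. Its paralog Ero1lb had a ratio of 3.96 with 1 positive CM cell. Pdia3 had 4.196 CP10k in TSF and 7.48 in CM, a ratio of 0.561, and Pdia4 1.03 and 2.04 CP10k, a ratio of 0.503. P4hb, at 0.987, lay between Ero1l and these relatives.

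Of 10 measured genes that supply iron, ascorbate, 2-oxoglutarate or copper, 2 were higher, 3 were lower and 5 lay within the limit. Tfrc, which takes up iron, had 0.249 CP10k in TSF and 0.0693 in CM, a ratio of 3.59, and Fth1, which stores iron, 134 and 83.1 CP10k, a ratio of 1.62. Idh2, a mitochondrial source of 2-oxoglutarate, had a ratio of 0.625 and was within the limit relative to the median gene. Atp7a, which loads copper onto lysyl oxidases, had a ratio of 0.443. The share of cells with an Atp7a UMI was not lower in TSF, with 20.9% against 17.2%, and its CM mean rests on 5 cells. Slc11a2, which also carries iron and was named after its value was seen, had a ratio of 0.658, in 13 TSF and 4 CM cells, and was within the limit relative to the median gene.

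**Figure D5:**
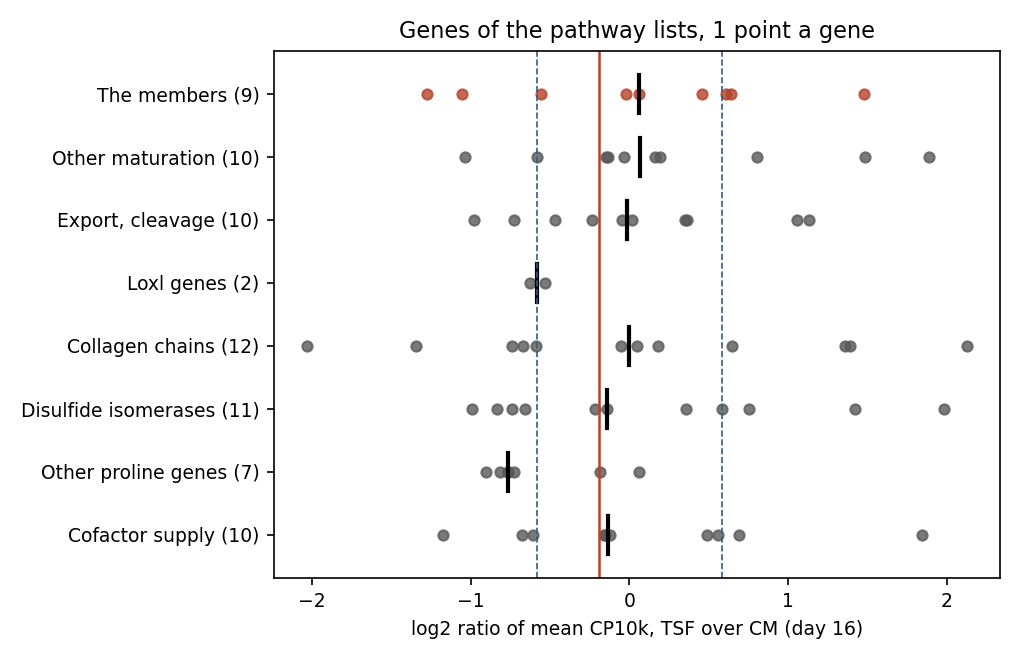
The log2 ratio of mean CP10k, TSF over CM, for the 9 genes and for each measured gene of the 7 lists, 1 point a gene, with the number of genes in brackets. Black bars are medians, dashed lines mark 1.5-fold and the red line the median of all genes; 1 list, the other proline genes, has all but 2 of its points left of the dashed line at the left.

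In the authors' gene set collection, 12 sets held at least 4 of the 10 genes. After the 10 genes were left out, 18.5 to 36.4% of the remaining measured genes of these sets were at least 1.5-fold higher in TSF and 8.33 to 42.9% lower, beside 16.0% and 29.8% of all measured genes. In the Reactome set of collagen biosynthesis and modifying enzymes, 8 of 22 other genes (36.4%) were higher and 6 (27.3%) lower, with a median log2 ratio of 0.17. In the KEGG set of arginine and proline metabolism from the curated collection, 7 of 28 (25%) were higher and 12 (42.9%) lower, with a median of -0.38. The Hallmark glycolysis set, which holds P4ha1, P4ha2, Plod1 and Plod2, had 41 of 151 other genes (27.2%) higher and 24 (15.9%) lower, with a median of 0.05.

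Some features of the cells moved with these results, and their part in the results was not tested. The cancer cells fell into 2 clusters of the authors, numbered 120 and 131. Cluster 120 held 85 of the TSF cells (61.2%, 52.5 to 69.3%) and 6 of the CM cells (20.7%, 7.99 to 39.7%), so different clusters held most cells of each library. Of 8 epithelial markers of the line, 4 were higher in TSF and none lower, beside 16.0% and 29.8% of all genes. Epcam had 1.28 CP10k in TSF and 0.195 in CM and Cldn4 0.432 and 0.0449 CP10k, Cdh1 had a ratio of 2.599 and Krt14 was seen in 22 TSF cells and listed at 0 in CM. Cdh1 and Krt14 passed the minimum in TSF alone. Krt8 (11.1 and 10.3 CP10k) and Krt18 (15.8 and 18.3 CP10k) were high in both, so markers of the epithelial line were present in both libraries. The summed level of the 8 markers was 31.1 CP10k in TSF and 30.7 in CM, most of it Krt8 and Krt18. The reporter CD90.1 was seen in 34.5% of TSF cells and 6.90% of CM cells, and Thy1 in 76.3% and 34.5%, although the study's methods identified cancer cells by CD90.1. CD90.1 is an allele of Thy1, so reads could be split between these 2 entries.

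Most markers of other lung cells were low. Of 12 fibroblast and mural cell markers, Lum, Pdgfrb and Cspg4 were at 0 in both libraries and 8 were at 0 in CM. The list summed to 14.1 CP10k in TSF and 20.7 in CM, nearly all of it Fn1 (12.9 and 20.1 CP10k). Pdgfra, named after its value was seen, had 0.426 and 0.407 CP10k, in 63 TSF and 13 CM cells. Dcn was seen in 16 TSF cells and 2 CM cells, with 0.526 and 0.0907 CP10k. Of 10 leukocyte markers 8 were at 0 in CM and 1, Lyz2, in both, with sums of 1.12 CP10k in TSF and 0.0202 in CM, led by S100a9 (0.685 CP10k in 4 TSF cells) and S100a8 (0.300 CP10k in 2 TSF cells). The 6 endothelial markers summed to 0.188 and 0.0685 CP10k, with Cldn5 at 0.0674 and Pecam1 at 0.0568 CP10k in TSF and Cdh5 seen in 6 TSF and 3 CM cells. The 6 alveolar markers summed to 0.120 and 0.476 CP10k, of which Sftpa1 gave 0.363 and Scgb1a1 0.113 CP10k in CM, while Sftpc and Sftpb were at 0 in both. The day 16 libraries shared 31 cell barcodes, none of them of cancer cells in both.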

How the data were processed

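Dissociated lungs were profiled with the 5′ 10x Genomics kit. Reads were mapped by the authors with Cell Ranger to mm10 (GRCm38.p6) with a CD90.1 sequence added, UMI counts were corrected for ambient RNA with a customized SoupX, and cells were annotated by hand. Clusters with markers of several cell types were removed by the authors as multiplets, with doublet scores from scDblFinder as a check. Among cancer cells the methods state that none had to be removed, and no doublets were called here. The labels' processing notes name Seurat 4.1.0. Used here were, as deposited by the authors, the mean CP10k of each gene in the cancer cells of each day 16 library (each column sums to 10000), the number of cells with a UMI and the same as a percent, and from the cell table the UMI counts, gene counts and percent of mitochondrial UMIs of each cell. The deposited fold changes, p-values, ranking scores and enrichment scores are the authors' own comparison and were not used. Cells of 2 further libraries in the cell table belong to no sample here and were left out.

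The log2 ratio of mean CP10k was taken with no pseudocount, for genes with a UMI in at least 10% of cells of either library, with a limit of 1.5-fold. Shares have exact Clopper-Pearson intervals and ratios of shares exact conditional intervals, both at 95%, for counting error only. The conditional interval takes the counts of positive cells as rates and leaves out the cells without a UMI. It is therefore too wide where shares are high. A count of 0 allows up to 3 counts of the total. Mean CP10k has no error, since counts of single cells were not used here. With 1 library per group there was no test. Level per positive cell is mean CP10k divided by the share of cells. Functions were checked on a made-up table with known ratios. Alternatives were pseudocounts of 1 and 0.1, 2 other scalings, 2 other measures, minimums of no filter and 25% of cells, and a limit of 2-fold. The 10 genes and the lists were chosen with earlier results of these data known. Named from each list were genes past the limit, at most the 4 furthest, and for marker lists also the 2 of highest level, except that 1 gene the rule names is not reported here. Gene coordinates came from GENCODE M21 and promoter windows from RefSeq, both on GRCm38. Pycr3 and Prodh2 were not matched by symbol, and Pycrl is the older symbol of Pycr3. Values were computed with scipy 1.17.1, pandas 2.3.3 and numpy 2.4.6 in Python 3.11.15, and plots drawn with matplotlib 3.10.9.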

Additional observations from a re-analysis of the deposited data

How the results depend on the processing

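No paired analysis was possible because each group had 1 library, and for the same reason no replicate could be left out. Among the 10 genes, 3 were higher and 2 lower past 1.5-fold. With a pseudocount of 1 these counts were 0 and 0, and with 0.1 they were 2, without Plod1, and 1. Per positive cell they were 0 and 1, the 1 being Pycr1 with a log2 ratio of -0.60 from 9 TSF and 3 CM cells. By that measure P4ha1 was close to equal, with a log2 ratio of -0.064. P4ha2 turned to -0.46, a value that rests on 3 CM cells. With a minimum of 25% of cells the lower count was 1, and with a 2-fold limit the higher count was 1. Outside the main setting, the share of all genes past the limit was computed for the 2 other scalings only. Counts under the remaining settings, here and for the lists below, therefore stand without that share. The median log2 ratio of the 9 genes was 0.17 without ribosomal protein and mitochondrial genes in the total, 0.25 relative to the median gene and -0.064 per positive cell. For the 7 lists, 14 higher and 21 lower became 4 and 3 with a pseudocount of 1, 8 and 12 with 0.1, 8 and 4 by the share of cells, and 7 and 13 per positive cell. The lower count was 9 relative to the median gene and 4 at 2-fold, and the higher count was 31 with no filter. That count takes as higher every gene listed at 0 in CM with a UMI in TSF, such as Col1a1 and Col1a2 with 6 positive TSF cells each. Leaving ribosomal protein and mitochondrial genes out of the total raised every log2 ratio by 0.10. A pseudocount cannot turn a direction, and the 2 other scalings add 0.10 or 0.19 to every log2 ratio, which turned P4hb alone. Only the share of cells and the level per positive cell could turn the larger ratios, and these 2 add up to the main log2 ratio. By both, Plod1, Plod2, Serpinh1, Aldh18a1, Pycr1 and P4hb kept their direction, though that of Pycr1 was not resolved. P4ha1 and P4ha2 turned per positive cell and Plod3 by the share of cells. Of these turns, those of P4ha1 and Plod3 lay close to equality and that of P4ha2 rests on 3 CM cells. The 29 CM cells limit every value.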
